A study of Homo sapiens with 4 samples.

Results

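The response of uveal melanoma cells to an uncoupler of mitochondrial respiration was described by comparing 1 RNA sequencing library of OMM2.3 cells given CCCP with 1 library of control OMM2.3 cells. OMM2.3 is an established human line from a liver metastasis of a uveal melanoma, the melanocyte-derived cancer of the eye. The series held 4 libraries, 1 each for control, CCCP, DHA, and CCCP together with DHA, and 2 of these 4 made up the comparison. Every culture was the same line in medium with 10% fetal bovine serum. The labels name no dose, exposure time or vehicle and do not spell out DHA. Levels are FPKM, fragments scaled to exon length and to a size of the library. That size was close to the reads counted in genes but not equal to them, as given under processing. Genes entered the comparison when at least 1 of the 2 libraries had 1 FPKM or more, which held for 13046 of 58735 genes, 10752 of them protein-coding.

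CCCP (carbonyl cyanide m-chlorophenyl hydrazone) carries protons through the inner mitochondrial membrane, so that the gradient built by the respiratory chain collapses and the ATP synthase loses its drive. Depolarised mitochondria stop importing proteins, keep the kinase PINK1 on their surface, which marks them for removal by mitophagy, and activate the protease OMA1, which through DELE1 and the kinase HRI switches on the integrated stress response. Cells that cannot make ATP by respiration depend on glycolysis for it. The groups of genes below follow these steps, from the genes that differed most to energy metabolism, the mitochondrion, stress signalling and growth.

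With 1 library per group there was no spread between replicates and no test, so genes are called higher or lower by a size rule only. Ratios are log2 values of FPKM with 0.5 added, and the rule was a difference of 2-fold or more. Folds are given for FPKM without the added 0.5, with exact 95% intervals in brackets that cover counting error alone. A gene with a printed fold of 2 or slightly more can therefore fall short of the rule. In bulk RNA, fewer cells of a kind and less RNA per cell cannot be told apart.

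Few protein-coding genes differed by 2-fold. Of the 10752 measured, 72 (0.670%) were at least 2-fold higher with CCCP and 60 (0.558%) at least 2-fold lower, and the interval of each of them excluded 1. Of the 6323 averaging 5 FPKM or more, 35 (0.554%) were higher and 39 (0.617%) lower. The median log2 ratio of protein-coding genes was -0.01, and the central 95% of them lay between -0.66 and 0.67. Above control at any size were 49.1% of them and below it 50.9%, against 50.3% and 49.7% of all gene types. That median and these shares depend on how the deposited values were scaled. Scaling the libraries to equal FPKM totals moved the median of all genes from 0.00 to -0.10, and the scaled median is given below for most groups whose own median was small and above 0. Over all gene types 404 genes (3.10%) were higher and 270 (2.07%) lower, of which 214 (1.64%) and 148 (1.13%) had intervals that excluded 1. The 2294 genes of other types held 332 of the higher and 210 of the lower genes, on a median of 40 reads over both libraries. Among 147 microRNA genes, whose median was 4 reads, 54 were called higher and 37 lower, but 4 and 2 of them had an interval that excluded 1. The members of the gene groups below are nearly all protein-coding, so their counts are to be read against 0.670% and 0.558%.

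**Figure D1:**
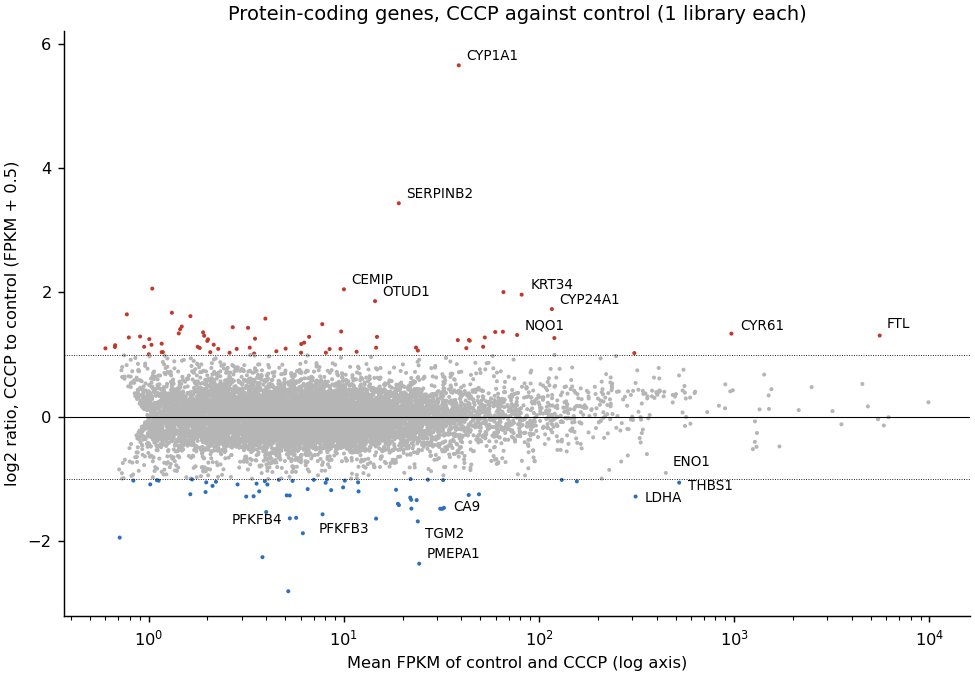
Each point is 1 of 10752 protein-coding genes, with its mean FPKM over control and CCCP on a log axis and its log2 ratio of CCCP to control on the y axis; red and blue mark the 72 genes at least 2-fold higher and the 60 at least 2-fold lower, and dotted lines mark 2-fold. CYP1A1 and SERPINB2 stand above the rest at 5.65 and 3.43, and most points lie within the dotted lines.

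Depth was alike in both libraries, with 18937286 reads in control and 16942245 with CCCP, of which protein-coding genes held 97.7% and 97.2%. Mitochondrial transcripts held 4.80% and 5.09% of reads. Markers of other cell types were checked as whole lists. None of 12 leukocyte and none of 8 endothelial markers reached 1 FPKM, and the summed level of each list was under 0.5 FPKM in both libraries, with CD3E, MS4A1 and the endothelial cadherin gene CDH5 at 0 in both. The lineage markers of pigment cells were present in part. Of 20 listed 6 were measured, namely MITF, PMEL, GPNMB, GPR143, RAB27A and RAB38, while PAX3, TYR, OCA2, SLC45A2, EDNRB, KIT and TRPM1 were at 0. The list summed to 82.4 FPKM in control and 88.1 with CCCP, with a highest value of 34.9. The lineage factor MITF was at 8.81 FPKM without CCCP and 8.89 with it. Epithelial markers summed to 379 FPKM in control and 301 with CCCP, nearly all of it from the simple keratins KRT8 and KRT18, while KRT5, KRT14, ESRP1 and GRHL2 were at 0. Of 12 fibroblast markers 5 were measured, with LUM and THY1 at 0, and their sums were 86.8 and 67.2 FPKM.

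A second pair of libraries differed by CCCP, namely both compounds against DHA alone, and it shared no library with the first. Its values are set beside those of the first pair for the main genes and groups, as what the same agent gave in DHA-treated cells. Of the 72 protein-coding genes higher with CCCP alone, 21 (29.2%) were also at least 2-fold higher in the second pair and 54 (75%) were above 0 there, with a median log2 ratio of 0.55. Of the 60 lower genes, 26 (43.3%) were at least 2-fold lower and 56 (93.3%) below 0, with a median of -0.87. Read from the other side, the second pair had 105 higher (0.985%) and 212 lower (1.99%) protein-coding genes, and 21 (20%) of the former and 28 (13.2%) of the latter were past the same fold with CCCP alone. Over 6402 protein-coding genes averaging 5 FPKM or more the ratios of the 2 pairs had Pearson's r of 0.50 and Spearman's rho of 0.44, a description across genes, which share libraries and are not replicates.

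**Figure D2:**
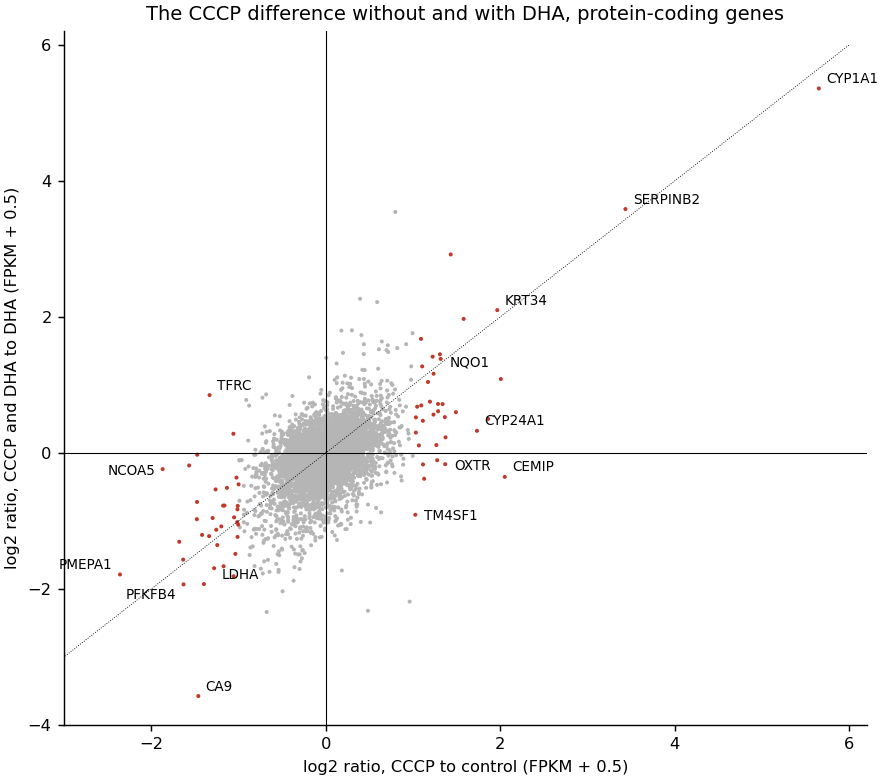
Each point is 1 of 6402 protein-coding genes averaging 5 FPKM or more over the 4 libraries; the x axis is the log2 ratio of CCCP to control, the y axis that of CCCP and DHA to DHA, red marks genes at least 2-fold different on the x axis, and the dotted line marks equal ratios. CYP1A1 and SERPINB2 lie near that line, CEMIP and OXTR lie at -0.35 and -0.17 on the y axis, and TFRC lies in the opposite quadrant at -1.33 and 0.85.

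The widest difference with CCCP was in the xenobiotic battery, the genes that the aryl hydrocarbon receptor switches on when it binds a planar foreign compound. CYP1A1, a cytochrome P450 and the classical target of the receptor (ENSG00000140465, chromosome 15, 74719542 to 74725610 on GRCh38), was at 1.03 FPKM without CCCP and 76.5 with it, and at 0.726 FPKM with DHA and 49.8 with both. Both libraries with CCCP were thus high and both without it low. CYP1B1, a related P450, was at 1.00 FPKM without CCCP and 3.0 with it and 3.0-fold (2.41 to 3.74) higher. TIPARP, an ADP-ribosyltransferase that feeds back on the receptor, was at 15.7 FPKM without CCCP and 26.0 with it, 1.65-fold (1.55 to 1.76) higher. NQO1, a quinone reductase that answers to this receptor and to NRF2, was at 44.0 FPKM without CCCP and 110.3 with it and 2.51-fold (2.40 to 2.62) higher, and its log2 ratio in the second pair was 1.38. The receptor gene AHR itself was at 3.24 FPKM without CCCP and 3.84 with it and its partner ARNT at 6.48 and 8.20. Of 12 listed genes 8 were measured, 3 were at least 2-fold higher and none lower, and the median log2 ratio was 0.54 against 0.73 in the second pair. The feedback gene AHRR and the targets CYP1A2, ALDH3A1 and UGT1A6 stayed under 1 FPKM in both libraries.

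The promoter of CYP1A1 is shown because it heads this group. It is the RefSeq window of 300 bases, from 250 before to 50 after the gene start, read 5′ to 3′ on GRCh38.p14 (chr15:74725479-74725778, minus strand), and capitals mark GCGTG, the core letters that the receptor and its partner bind. The best-studied response elements of this gene lie further upstream than the window.
CYP1A1: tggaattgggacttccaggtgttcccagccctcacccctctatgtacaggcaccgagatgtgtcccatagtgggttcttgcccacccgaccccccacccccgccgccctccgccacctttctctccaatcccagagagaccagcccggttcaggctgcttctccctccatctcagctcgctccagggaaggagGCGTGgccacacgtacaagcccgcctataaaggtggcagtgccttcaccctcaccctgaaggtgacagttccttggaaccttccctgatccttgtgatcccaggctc
GCGTG or its reverse complement was found in 6 of 10 windows of 7 genes of the battery, and in 36.5% of all 35116 windows of this length, so that these letters are common in promoters at large.

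SERPINB2, which encodes an intracellular inhibitor of plasminogen activators (ENSG00000197632, chromosome 18, 63871692 to 63903890 on GRCh38), was at 2.82 FPKM without CCCP and 35.4 with it, and at 5.85 FPKM with DHA and 75.7 with both. It was the only one of 7 measured genes of the plasminogen system at least 2-fold different. On the activating side the tissue activator gene PLAT was at 12.1 FPKM without CCCP and 7.90 with it, 1.54-fold (1.41 to 1.67) lower, and S100A10, a surface docking site for plasminogen, was 1.59-fold (1.49 to 1.70) lower, with a log2 ratio of -1.26 in the second pair. The urokinase receptor gene PLAUR was at 27.6 and 26.9 FPKM.

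Hair keratins, structural proteins of the hair shaft, were the list with the highest median. Of 17 listed genes 9 were measured and 5 were at least 2-fold higher, and the median log2 ratio was 1.27, against 0.19 in the second pair, where 6 of the 9 lay above DHA alone. KRT34 was at 32.9 FPKM without CCCP and 129.9 with it, and KRT33B at 70.1 FPKM without CCCP and 169 with it. KRT31 was lower in level, at 1.74 and 6.19 FPKM, and 3.56-fold (2.60 to 4.93) higher. The keratin-associated genes KRTAP2-3 and KRTAP2-4, near-identical neighbours between which reads may have been split, were 4.07-fold (3.66 to 4.54) and 3.05-fold (2.23 to 4.21) higher. In the second pair KRT34 and KRT31 were again higher, at log2 ratios of 2.10 and 1.97, whereas KRT33B was at 62.0 FPKM with DHA and 67.1 with both. Keratins of simple epithelia lay the other way: all 4 measured, among them KRT8 and KRT18, were below control, by at most 1.34-fold (1.30 to 1.38) for KRT18, and none by 2-fold.

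Several single genes outside these lists were also among the highest. OXTR, the oxytocin receptor gene, was at 36.2 FPKM without CCCP and 94.3 with it and 2.60-fold (2.5 to 2.71) higher, yet at 41.7 FPKM with DHA and 37.1 with both. ALDH1A3, a retinaldehyde dehydrogenase gene, was 2.74-fold (2.49 to 3.02) higher from a control level of 5.18 FPKM, and SCG5, which encodes a secretory granule chaperone, was 2.60-fold (2.44 to 2.77) higher. CYP24A1, the enzyme that inactivates vitamin D, was at 53.6 FPKM without CCCP and 179 with it, but at 35.1 and 44.1 FPKM in the second pair. Its regulator, the vitamin D receptor gene VDR, was at 1.68 and 1.30 FPKM. OTUD1, a deubiquitinase gene, was at 5.96 FPKM in control and 22.9 with CCCP, and its second-pair log2 ratio was 0.50. CEMIP, which encodes a hyaluronan-degrading protein, was the clearest case of a difference seen in 1 pair alone. It was at 3.59 FPKM without CCCP and 16.4 with it, and at 2.13 FPKM with DHA and 1.56 with both, so that the sole high library was that with CCCP alone. Its partners in hyaluronan handling were near control, CD44 at 46.7 and 53.7 FPKM and HYAL2 at 4.22 and 4.12.

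**Figure D3:**
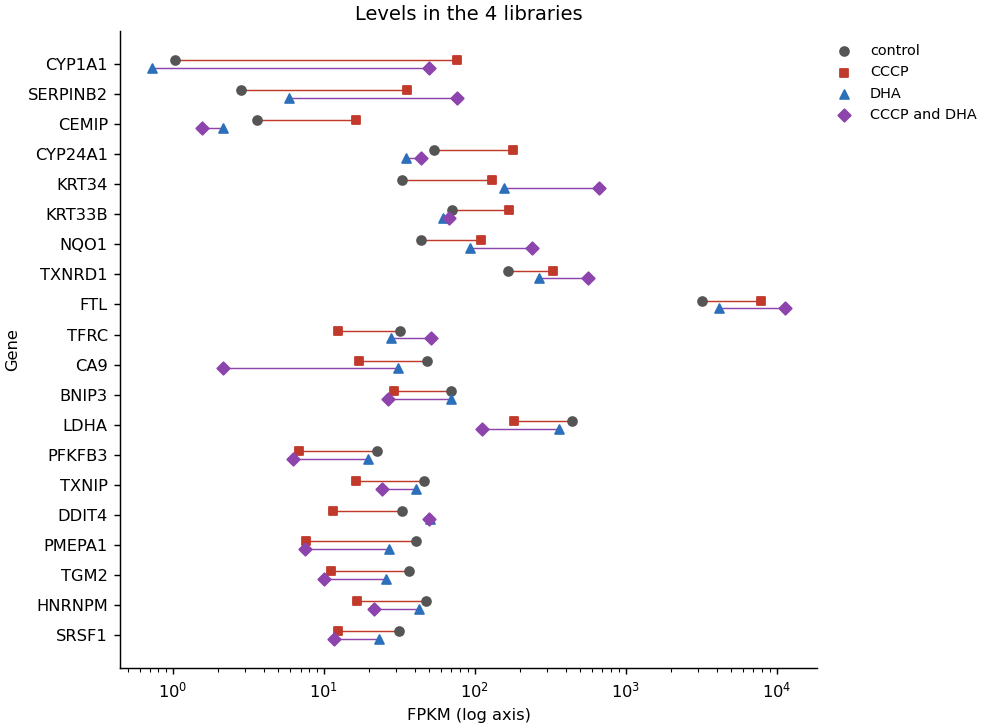
FPKM on a log axis in each of the 4 libraries for 20 genes named in the text; the upper line of each gene joins control and CCCP, the lower line DHA and CCCP with DHA. For CYP1A1, KRT34, NQO1, LDHA, PFKFB3 and PMEPA1 the 2 lines run the same way, CEMIP and TFRC run opposite ways, and CYP24A1, KRT33B and DDIT4 have a short lower line beside a long upper one.

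Glycolysis genes were lower with CCCP. Of 25 measured, 20 lay below control and 5 above, 2 were at least 2-fold lower and none higher, and the median log2 ratio was -0.47 (-0.86 in the second pair, with 21 below). Summed over the list, levels came to 4310.5 FPKM without CCCP and 2697 with it. LDHA, the dehydrogenase that turns pyruvate into lactate (ENSG00000134333, chromosome 11, 18394388 to 18408425 on GRCh38), was at 443 FPKM without CCCP and 182 with it, 2.44-fold (2.40 to 2.48) lower, and at 362 FPKM with DHA and 111 with both. PGK1, which makes the first ATP of the pathway, was at 210.2 FPKM without CCCP and 102 with it, 2.06-fold (2.01 to 2.11) lower.

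Along the pathway the difference was uneven. The main glucose carrier gene SLC2A1 was at 118 FPKM without CCCP and 71.8 with it, 1.64-fold (1.59 to 1.69) lower. HK2, the inducible hexokinase gene, was at 11.6 and 8.47 FPKM. At the committed step the 3 phosphofructokinase genes lay on both sides of control. PFKL was 1.40-fold (1.33 to 1.47) lower, the platelet form PFKP was at 94 and 87.6 FPKM, and the muscle form PFKM was 1.32-fold (1.23 to 1.42) higher. In the later steps of the pathway, where triose phosphates are turned into pyruvate, GAPDH was at 1516 FPKM without CCCP and 1085 with it, PGAM1 at 295 and 163 FPKM, ENO1 at 581 and 311 FPKM and PKM at 328 and 199 FPKM. The last of these, pyruvate kinase, was 1.65-fold (1.62 to 1.67) lower. The lactate exporter gene SLC16A3 was 1.67-fold (1.62 to 1.72) lower, and PDK1, the kinase that keeps pyruvate out of the mitochondrion, was at 5.63 FPKM without CCCP and 2.57 with it, 2.19-fold (2.0 to 2.41) lower. The other lactate carrier gene, SLC16A1, was at 36.1 and 22.2 FPKM.

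The bifunctional enzymes that set fructose-2,6-bisphosphate, the strongest activator of phosphofructokinase, differed more than the pathway itself. PFKFB3 was at 22.4 FPKM without CCCP and 6.86 with it, and PFKFB4 at 8.25 and 2.32. They were at 19.6 and 6.26 FPKM, and at 7.8 and 1.67, in the second pair. PFKFB2, the form regulated by hormones in heart, was at 1.86 and 2.20 FPKM. The pentose phosphate pathway, which branches off at glucose-6-phosphate, was nearer to control, with 6 of 7 genes above control, none by 2-fold, and a median log2 ratio of 0.12 (0.17 in the second pair), which came to 0.01 when the libraries were scaled to equal totals. Its transketolase gene TKT, at 45.6 and 71.9 FPKM, was 1.58-fold (1.53 to 1.62) higher. TXNIP, the arrestin-like inhibitor of glucose uptake whose transcription follows glucose-6-phosphate through the sensor MondoA, was at 46.1 FPKM without CCCP and 16.2 with it, 2.84-fold (2.64 to 3.05) lower. Its sister target ARRDC4 and the MondoA gene MLXIP were at log2 ratios of -0.67 and -0.65. In the second pair TXNIP was at -0.72 and ARRDC4 at -0.03.

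**Figure D4:**
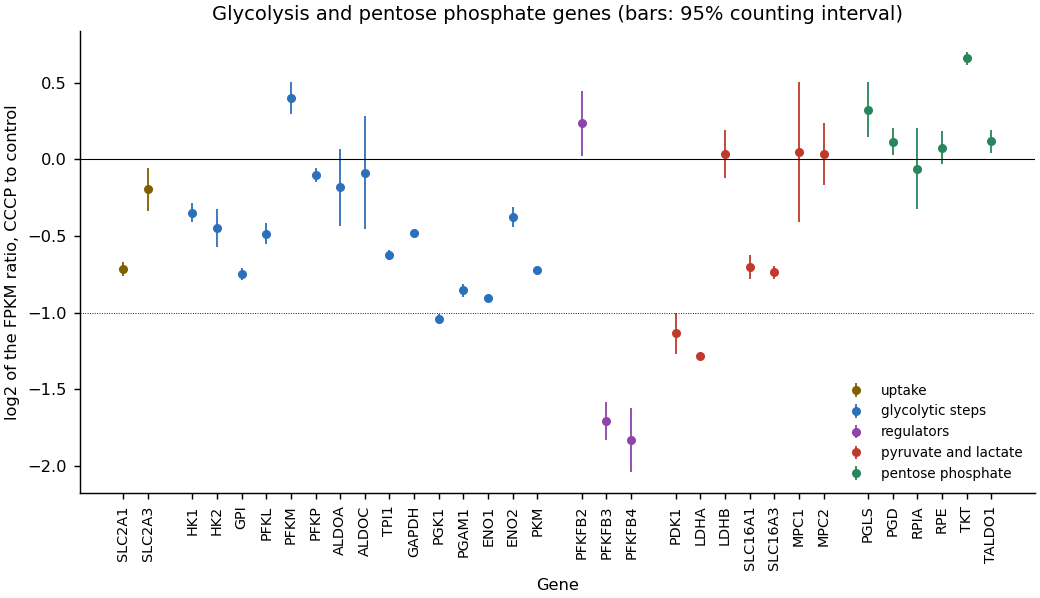
Log2 FPKM ratio of CCCP to control, without the added 0.5, for 33 genes of glucose use ordered along the pathway, with bars for the exact 95% counting interval and colours for the step. PFKFB3, PFKFB4, LDHA, PDK1 and PGK1 lie at or below the dotted line at 2-fold lower, PFKM is the one gene above 0 among those from hexokinase to pyruvate kinase, and the pentose phosphate genes drawn, all but RPIA, lie above 0.

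The promoters of LDHA (chr11:18394313-18394612, plus strand) and PGK1 (chrX:78103998-78104297, plus strand) are shown in the same RefSeq windows on GRCh38.p14, because these were the 2 genes of the glycolysis list at least 2-fold lower. Capitals mark ACGTG, the core letters bound by hypoxia-inducible factors, or its reverse complement CACGT; where CACGTG is in capitals the letters are met on both strands.
LDHA: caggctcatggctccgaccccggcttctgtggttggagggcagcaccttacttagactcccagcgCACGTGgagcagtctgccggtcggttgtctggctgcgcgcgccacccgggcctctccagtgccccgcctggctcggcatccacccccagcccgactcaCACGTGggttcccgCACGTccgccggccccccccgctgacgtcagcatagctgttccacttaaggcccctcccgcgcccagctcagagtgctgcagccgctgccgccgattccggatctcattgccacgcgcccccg
PGK1: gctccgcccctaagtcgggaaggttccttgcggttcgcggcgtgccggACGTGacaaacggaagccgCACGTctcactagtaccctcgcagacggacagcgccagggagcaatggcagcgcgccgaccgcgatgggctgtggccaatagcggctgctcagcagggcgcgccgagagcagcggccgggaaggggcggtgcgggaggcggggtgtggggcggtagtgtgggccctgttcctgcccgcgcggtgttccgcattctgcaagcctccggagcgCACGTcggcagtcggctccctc
ACGTG on either strand was found in 17 of 50 windows (34.0%) of 23 glycolysis genes, in 19 of 34 windows (55.9%) of 26 genes of the hypoxia list, and in 21.4% of all 35116 windows.

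Genes of the hypoxia response were lower in the same library. Of 24 measured targets 22 lay below control, 6 of them at least 2-fold, and 1 was at least 2-fold higher, for a median log2 ratio of -0.53 (-0.70 in the second pair). CA9, the cell-surface carbonic anhydrase that is a standard mark of hypoxia-inducible factor activity, was at 48.0 FPKM without CCCP and 17.1 with it, 2.81-fold (2.53 to 3.12) lower, and at 31.2 FPKM with DHA and 2.15 with both. The transcriptional repressor gene BHLHE40 was at 27.7 FPKM without CCCP and 10.2 with it, 2.72-fold (2.49 to 2.97) lower, and PPFIA4, a scaffold gene, at 4.69 and 1.63 FPKM. BNIP3, a mitophagy receptor of the outer mitochondrial membrane, was at 69.5 FPKM without CCCP and 29 with it, 2.39-fold (2.29 to 2.51) lower, and its relative BNIP3L at 66.8 and 45.6, 1.46-fold (1.40 to 1.53) lower. PLOD2, a lysyl hydroxylase of collagen, was 2.03-fold (1.98 to 2.07) lower from 175 FPKM.

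Members of the hypoxia list did not all follow in both pairs. DDIT4, which encodes an inhibitor of mTORC1, was 2.86-fold (2.55 to 3.21) lower with CCCP alone, at 32.9 and 11.5 FPKM, but at 50.7 FPKM with DHA and 49.7 with both. VEGFA, the angiogenic growth factor, was 1.93-fold (1.80 to 2.08) lower in the first pair and 1.64-fold (1.57 to 1.71) higher in the second. STC2, also a target of the integrated stress response, was the member at least 2-fold higher, at 5.22 FPKM without CCCP and 11.7 with it. The factors themselves were not lower: HIF1A was at 216 FPKM without CCCP and 285 with it, 1.32-fold (1.30 to 1.35) higher, and EPAS1, which encodes HIF-2 alpha, at 15.3 and 17.6. EGLN1, the main oxygen-sensing hydroxylase that marks HIF for destruction and is itself induced by it, was at 16.6 FPKM without CCCP and 9.22 with it, 1.80-fold (1.68 to 1.94) lower.

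CA9 (chr9:35673678-35673977, plus strand) and BNIP3 (chr10:131981874-131982173, minus strand) are shown, the former as the standard mark of the hypoxia response and the latter as the target shared with the mitophagy list, with ACGTG or CACGT in capitals in the same windows on GRCh38.p14.
CA9: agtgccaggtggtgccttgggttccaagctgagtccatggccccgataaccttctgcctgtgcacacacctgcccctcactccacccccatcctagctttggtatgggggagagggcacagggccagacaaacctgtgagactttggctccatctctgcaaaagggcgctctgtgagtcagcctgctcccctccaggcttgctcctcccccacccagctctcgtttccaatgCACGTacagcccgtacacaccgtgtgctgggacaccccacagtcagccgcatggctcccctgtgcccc
BNIP3: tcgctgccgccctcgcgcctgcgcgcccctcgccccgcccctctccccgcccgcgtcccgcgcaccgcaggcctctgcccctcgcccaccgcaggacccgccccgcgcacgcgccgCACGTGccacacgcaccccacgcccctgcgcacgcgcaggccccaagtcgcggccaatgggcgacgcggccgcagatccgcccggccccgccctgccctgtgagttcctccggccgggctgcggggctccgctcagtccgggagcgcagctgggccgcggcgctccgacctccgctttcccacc

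Transcripts of the respiratory chain, the machine that CCCP disconnects from ATP synthesis, differed little. None of the measured nuclear subunits of complexes I to IV and none of 15 of the ATP synthase were 2-fold different. Median log2 ratios were 0.14 for 34 complex I genes, 0.22 for 4 of complex II, 0.14 for 9 of complex III and 0.27 for 10 of complex IV, of which 25, 4, 8 and 9 lay above control. In the second pair these medians were -0.06, 0.00, -0.01 and -0.16. Under scaling to equal totals those of the first pair came to 0.02, 0.12, 0.03 and 0.16. Among the higher complex I genes were NDUFS4, an assembly-critical subunit, at 34.0 FPKM without CCCP and 48.3 with it, and NDUFB8 at 3.26 and 4.73. In complex IV the housekeeping subunit COX4I1 was 1.30-fold (1.25 to 1.36) higher and COX6B1 1.31-fold (1.24 to 1.38) higher. The ATP synthase genes had a median of 0.00, with ATP5MC2, a gene of the rotating ring, at 27.2 and 35.9 FPKM. ATP5IF1, the inhibitor that stops the enzyme from running backwards and burning ATP in depolarised mitochondria, was at 24.9 and 27.4. UCP2, a member of the natural uncoupling protein family, was 1.49-fold (1.38 to 1.61) higher, at 18.6 and 27.7 FPKM, and the adenine nucleotide carrier gene SLC25A6 was 1.45-fold (1.41 to 1.49) higher. UCP2 was below DHA alone in the second pair, at a log2 ratio of -0.24.

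The 13 mRNAs encoded in mitochondria lay at a median log2 ratio of -0.01, with 6 above and 7 below control. The 2 ribosomal RNA genes of the same genome were higher, at a median of 0.85 on a median of 90175 reads, neither by 2-fold. MT-CO1, the catalytic subunit of complex IV, was at 9076 FPKM without CCCP and 10674 with it, MT-CYB of complex III at 1982 and 1425, and MT-ND2 of complex I at 1467 and 1024. In the second pair 11 of the 13 lay below DHA alone and the median was -0.63, with MT-CO1 at -0.78 and MT-ND2 at 0.15. The mitochondrial share of all reads moved the same way, from 5.18% with DHA to 3.85% with both, and its part in those ratios was not tested. The machinery that expresses these genes was close to control. The 75 measured proteins of the mitochondrial ribosome had a median of 0.00 with none at least 2-fold different, TFAM, the packaging factor of mitochondrial DNA, was at 12.6 and 9.77 FPKM, and PPRC1, a coactivator of biogenesis, was at 8.55 FPKM without CCCP and 5.79 with it, 1.48-fold (1.33 to 1.64) lower. Enzymes of the tricarboxylic acid cycle had a median of 0.04 over 19 genes, which turned to -0.07 when the libraries were scaled to equal totals, and the widest of them was SUCLG2, a subunit of succinyl-CoA ligase, at 29.6 FPKM without CCCP and 41.3 with it.

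Mitochondrial stress genes other than those of the integrated stress response also lay near control. The 17 chaperones and proteases of the organelle had a median of -0.04 and none was 2-fold different. HSPD1, the folding chamber Hsp60, was at 156 and 148 FPKM, HSPA9, the import motor, at 33.9 and 32.4, and LONP1, the matrix protease, at 26.1 and 26.7. The co-chaperonin gene HSPE1 was 1.46-fold (1.31 to 1.62) lower. In DHA-treated cells HSPA9 was 1.83-fold (1.78 to 1.89) higher with CCCP added. Of the secreted factors by which mitochondrial stress is read in blood, GDF15 and FGF21 stayed under 1 FPKM in both libraries. Fission and fusion genes had a median of 0.01 over 15 genes, none 2-fold different, which turned to -0.08 under scaling to equal totals. OPA1, the inner membrane fusion GTPase that OMA1 cleaves, was 1.30-fold (1.23 to 1.37) higher, and DNM1L, the fission GTPase, was at 10.1 and 9.81 FPKM.

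Mitophagy genes were above control in 16 of 23 cases, with 1, BNIP3, at least 2-fold lower and a median log2 ratio of 0.24 (0.13 under scaling to equal totals). Of 10 measured kinases, ubiquitin enzymes and adaptors 9 were above control, none by 2-fold, for a median of 0.32 (0.34 in the second pair, 10 of 10 above). PINK1, the depolarisation sensor, was at 8.39 FPKM without CCCP and 12.7 with it, 1.51-fold (1.38 to 1.66) higher. OPTN, an adaptor that ties ubiquitin-coated mitochondria to the autophagosome, was at 26.0 and 38.7, 1.49-fold (1.41 to 1.56) higher, and SQSTM1, the adaptor p62, at 40.7 and 55.6. Of the 7 receptors that sit in the mitochondrial membranes 4 were above control, with a median of 0.10, and 1 lay above DHA alone in the second pair, with a median of -0.20. BNIP3 and BNIP3L were below control, as given above, while FUNDC1 was at 7.46 FPKM without CCCP and 11.0 with it, 1.47-fold (1.22 to 1.78) higher, and was at -0.43 in the second pair. Anchors and targets had 3 of 6 above control and a median of 0.05, the highest being RHOT1, which encodes the motor anchor Miro1, at 1.47-fold (1.33 to 1.63) higher.

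Integrated stress response genes lay above control as a group, mostly by small amounts. Of 30 measured, 22 were above control, 2 at least 2-fold higher and 1 at least 2-fold lower, and the median log2 ratio was 0.30 (0.60 in the second pair, 26 above, and 0.19 in the first under scaling to equal totals). ATF4, the central factor of the response, was at 104 FPKM without CCCP and 129 with it, 1.23-fold (1.19 to 1.28) higher. Among feedback genes and partner factors, ATF3 was at 0.992 and 3.04 FPKM, 3.06-fold (2.35 to 4.03) higher, the phosphatase subunit gene PPP1R15A at 27.4 and 42.9, the pseudokinase gene TRIB3 at 4.67 and 7.27, and DDIT3, which encodes CHOP, at 5.50 and 7.37. In the second pair DDIT3 was 4.96-fold (4.36 to 5.65) higher and TRIB3 4.76-fold (4.44 to 5.11) higher. Of the arm that reports mitochondrial damage, OMA1 was at 2.25 and 2.27 FPKM, DELE1 at 10.7 and 9.33, and EIF2AK1, which encodes HRI, at 26.4 and 24. Short-lived transcripts, which also vary with how RNA is handled, had a median of -0.03 over 16 genes in the same pair, and share ATF3 and PPP1R15A with this list.

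Measured targets of the response for amino acid supply were each less than 2-fold different by the size rule, apart from STC2 and CHAC2. SLC7A11, the cystine importer, was at 3.01 FPKM without CCCP and 5.18 with it, 1.72-fold (1.55 to 1.92) higher, and CTH, which makes cysteine, at 1.17 and 2.23 FPKM. PSAT1 of serine synthesis was at 22.7 and 29.3. CHAC2, a glutathione-degrading enzyme, lay the other way, at 5.33 FPKM without CCCP and 2.04 with it, 2.61-fold (1.85 to 3.75) lower. ASNS, the asparagine synthetase gene and a textbook target, was higher with CCCP, at 0.0577 and 0.403 FPKM on 5 and 30 reads. It stayed under 1 FPKM in both libraries and so did not enter the comparison or its counts. Amino acid carriers were split, with 5 of 10 above control. The widest was SLC43A1, a carrier of large neutral amino acids, at 1.34 and 2.98 FPKM, and SLC7A5, which also belongs to the stress response list, was at 18.5 and 25.4. Below control, the glutamine importer gene SLC1A5 was at 26.5 and 18.5 FPKM and SLC7A6 at 3.78 and 2.10.

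Genes that sense energy differed little apart from DDIT4. All 7 measured genes of AMPK, the kinase switched on by falling ATP, and of its activator lay within -0.05 and 0.39 on the log2 scale, the catalytic subunit gene PRKAA1 at 0.14. Over the whole list of 22 the median was 0.06, which turned to -0.04 when the libraries were scaled to equal totals.

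NRF2 targets, the genes of redox defence, were above control in 12 of 18 cases, with 2 at least 2-fold higher, none lower and a median log2 ratio of 0.29 (0.70 in the second pair, and 0.19 in the first under scaling to equal totals). Besides NQO1 and FTL, the members at least 2-fold higher, TXNRD1, the cytosolic thioredoxin reductase gene, was at 167 FPKM without CCCP and 329 with it, 1.97-fold (1.94 to 2.0) higher, and AKR1B1, an aldose reductase gene, at 47.7 and 79.6 FPKM. HMOX1, the haem oxygenase gene and the target most often read, was at 8.08 FPKM without CCCP and 4.68 with it, 1.73-fold (1.45 to 2.07) lower, but 1.82-fold (1.54 to 2.16) higher in the second pair, from 5.31 FPKM with DHA to 9.68 with both. The factor gene NFE2L2 was 1.30-fold (1.21 to 1.40) higher and that of its repressor KEAP1 1.28-fold (1.17 to 1.40) lower. TGACNNNGC, the core of the antioxidant response element, was found in 5 of 15 windows of 11 of these genes and in 13.3% of all windows.

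The iron genes held both directions. FTL, the light chain of the iron store ferritin, was among the most abundant nuclear transcripts named here, at 3199 FPKM without CCCP and 7916 with it, 2.47-fold (2.45 to 2.5) higher, and at 4160.4 FPKM with DHA and 11355 with both. FTH1, the heavy chain, was at 150.3 and 201 FPKM, 1.34-fold (1.29 to 1.38) higher. TFRC, the transferrin receptor that brings iron into the cell (ENSG00000072274, chromosome 3, 196027183 to 196082189 on GRCh38), was at 31.9 FPKM without CCCP and 12.4 with it, 2.58-fold (2.44 to 2.73) lower, but at 28.0 FPKM with DHA and 50.9 with both, 1.81-fold (1.74 to 1.89) higher. The library with CCCP alone was the lowest of the 4 for TFRC and that with both the highest. The regulators of both transcripts' fate, ACO1 and IREB2, which encode the iron regulatory proteins, were at log2 ratios of 0.06 and -0.05. Both ferritin genes have many processed copies in the genome, between which reads can be split.

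Chaperones of the endoplasmic reticulum were lower. Of 16 chaperones and oxidoreductases 15 lay below control, none by 2-fold, with a median log2 ratio of -0.45 (-0.61 in the second pair). HSPA5, the chaperone BiP, was at 279 FPKM without CCCP and 139.8 with it, 1.99-fold (1.95 to 2.04) lower, and at 214 FPKM with DHA and 199 with both. CALR, a calcium-binding lectin chaperone, was at 430.0 FPKM without CCCP and 284 with it, 1.52-fold (1.48 to 1.55) lower, and its membrane-bound relative CANX at 153 and 105 FPKM. In the cytosol 12 of 16 heat shock genes lay below control with a median of -0.27, the Hsp40 gene DNAJA1 lowest at 71.2 FPKM without CCCP and 45.8 with it. Proteasome subunits were below control in 23 of 30 cases, with a median of -0.09 and PSMC4, an ATPase of the cap, at 40.7 and 29.7.

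Autophagy and lysosome genes were close to control. The 23 autophagy genes lay at a median log2 ratio of 0.08 and the 43 lysosome genes at 0.08, with 17 and 34 above control, and both medians turned to -0.03 and -0.02 when the libraries were scaled to equal totals. GABARAPL1, which encodes an autophagosome tag, was 1.69-fold (1.45 to 1.98) higher, at 3.55 and 6.01 FPKM, while MAP1LC3B, which encodes LC3B, was at 18.0 and 18.1 and, in the second pair, 2.67-fold (2.54 to 2.80) higher. TFEB, the factor best known for driving lysosome genes, was at 1.19 and 1.32 FPKM. ATP6V0C of the proton pump was the one member at least 2-fold different, at 1.65 and 0.559 FPKM, on 48 and 14 reads, and it lay above DHA alone in the second pair.

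DNA replication genes had the lowest median of the lists with at least 6 measured genes. Of 28 licensing and fork genes 27 lay below control, 2 at least 2-fold lower, with a median log2 ratio of -0.60, and in the second pair all 28 lay below DHA alone with a median of -0.99. UHRF1, which couples replication to DNA methylation, was at 25.8 FPKM without CCCP and 11.2 with it, 2.31-fold (2.15 to 2.49) lower. GINS3, a subunit of the replicative helicase, was at 5.02 FPKM without CCCP and 2.12 with it, 2.37-fold (1.99 to 2.82) lower, and CDC6, which loads that helicase at origins, at 9.85 and 4.89 FPKM, 2.01-fold (1.80 to 2.25) lower. MCM4, a gene of the helicase ring, was 1.81-fold (1.72 to 1.90) lower, and FEN1, the flap nuclease of lagging strand synthesis, was 1.85-fold (1.71 to 2.02) lower. CDT1, the licensing partner of CDC6, was the gene above control, at 10.6 and 13.3 FPKM.

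The promoter of CDC6 (chr17:40287629-40287928, plus strand) is shown in its RefSeq window on GRCh38.p14 with TTTGGCGC, one of the letter strings bound by E2F factors, in capitals.
CDC6: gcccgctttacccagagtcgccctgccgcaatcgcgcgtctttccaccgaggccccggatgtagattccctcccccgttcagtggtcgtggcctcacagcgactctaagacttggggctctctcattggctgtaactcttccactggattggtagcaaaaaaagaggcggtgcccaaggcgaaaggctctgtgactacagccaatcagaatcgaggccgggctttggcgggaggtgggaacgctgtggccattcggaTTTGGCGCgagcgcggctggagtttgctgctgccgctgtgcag
TTTGGCGC and TTTCGCGC, searched on both strands, were each found in 6 of 33 windows (18.2%) of 25 replication genes, against 0.652% and 0.515% of all windows.

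Other steps of the cell cycle differed less with CCCP alone. The 26 mitosis genes lay at a median log2 ratio of -0.11, with 18 below control and none by 2-fold, but -0.99 in the second pair, where all 26 lay below DHA alone. MKI67, the proliferation marker Ki-67, was at 27.5 FPKM without CCCP and 23.1 with it, 1.19-fold (1.15 to 1.23) lower, and at 24.4 FPKM with DHA and 8.47 with both. CDK1, the mitotic kinase, was at 37.4 and 42.1 FPKM in the first pair and 34.0 and 16.1 in the second. Genes of nucleotide supply lay between those of replication and mitosis, with 12 of 15 below control and a median of -0.29, among them the thymidine kinase gene TK1 at 111 and 76.0 FPKM. Recombination and checkpoint genes had a median of -0.26, 14 of 15 below control, CLSPN of the fork checkpoint lowest at 6.41 FPKM without CCCP and 3.99 with it. At entry to the cycle CCND1, the cyclin D1 gene, was 1.35-fold (1.32 to 1.39) lower from 188 FPKM, and E2F2, a factor that turns on S phase genes, was at 2.18 and 1.33. CDKN1C, which encodes the inhibitor p57, was at 0.601 and 1.76 FPKM, 2.93-fold (1.88 to 4.68) higher, but -0.27 on the log2 scale in the second pair.

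Genes of growth arrest and cell death gave few differences. The damage-inducible gene GADD45A was at 26.7 FPKM without CCCP and 58.1 with it, 2.17-fold (2.02 to 2.34) higher, and its second-pair log2 ratio was 1.27. CDKN1A, the p21 inhibitor, was at 48.3 and 52.8, and MDM2 at 5.83 and 5.12 FPKM. Of 12 measured BCL2 family and death receptor genes none was 2-fold different. BCL2L11, which encodes the killer protein BIM, was lowest at 2.42 FPKM without CCCP and 1.53 with it, and MCL1, a guardian with a short-lived transcript, was at 64.9 and 56.9.

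Splicing factor genes were lower nearly throughout. All 17 hnRNP genes and 10 of 12 SR protein genes lay below control, 2 of the 29 at least 2-fold, with a median log2 ratio of -0.30 (-0.29 in the second pair, 27 below). HNRNPM, a regulator of alternative exons, was at 47.2 FPKM without CCCP and 16.6 with it, and at 42.5 FPKM with DHA and 21.3 with both. SRSF1, the founding SR protein, was at 31.3 FPKM without CCCP and 12.4 with it, 2.52-fold (2.31 to 2.75) lower, and at 23.1 FPKM with DHA and 11.7 with both. SRSF6 was 1.76-fold (1.67 to 1.85) lower, SRSF2 1.70-fold (1.61 to 1.79) lower and SRSF3 1.68-fold (1.62 to 1.75) lower. SRSF11 and SRSF4 were the 2 above control.

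Ribosomal protein genes were higher by a small and even amount. Of 76 genes of the cytosolic ribosome 74 lay above control, none by 2-fold, within log2 ratios of -0.49 and 0.66 and a median of 0.41 (0.17 in the second pair, 73 above). Summed, they came to 19341 FPKM in control and 25544 with CCCP. RPS27 was at 403 FPKM without CCCP and 639 with it, 1.59-fold (1.54 to 1.63) higher, and RPL12 at 326 and 500.0. Elongation factors whose mRNAs are controlled with those of the ribosome lay alike, EEF1A1 at 2081 and 2897 FPKM and EEF2 at 738 and 1061. The 21 measured initiation and elongation factors as a whole were split, 10 above and 11 below control, with a median of -0.05 (0.17 in the second pair). Host transcripts of small nucleolar RNAs lay on both sides, 7 of 12 above control, with a median of 0.30 (0.41 in the second pair, all 12 above, and 0.19 in the first under scaling to equal totals), GAS5 at 47.0 and 74.6 FPKM and SNHG1 at 20.1 and 15.6. The initiation factor gene EIF5 lay the other way, at 28.6 FPKM without CCCP and 19.7 with it, 1.45-fold (1.39 to 1.52) lower. EIF3C was at 0.935 and 2.63 FPKM, but a near-identical neighbouring copy may share its reads. Among processed pseudogenes, 456 of which were measured and many of which copy ribosomal protein genes, the median log2 ratio was 0.29 with 54 at least 2-fold higher and 20 lower. Under scaling to equal totals the median of the ribosomal protein list was 0.30.

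Transforming growth factor beta genes differed at the targets rather than the receptors. The 5 receptors and Smads lay between -0.28 and 0.16 on the log2 scale. Of 15 feedback and effector genes 5 were at least 2-fold lower and none higher. PMEPA1, a membrane protein that retains Smads, was at 41.0 FPKM without CCCP and 7.58 with it, and at 27.0 FPKM with DHA and 7.45 with both. FOXS1, a forkhead factor gene, was at 6.66 FPKM without CCCP and 0.998 with it, 6.67-fold (4.27 to 10.9) lower, and TGM2, the crosslinking transglutaminase, at 36.7 and 11.1 FPKM. LTBP2 of the microfibril matrix was 2.05-fold (1.97 to 2.13) lower. Against these, BAMBI, a pseudoreceptor, was above control at a log2 ratio of 0.83. Among ligands TGFB2 was at 15.3 FPKM without CCCP and 32.6 with it, 2.13-fold (2.0 to 2.27) higher, and INHBA, which encodes the activin A subunit, at 3.61 and 8.90 FPKM, 2.46-fold (2.23 to 2.72) higher, while TGFB1 was at 85.9 and 87.1.

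Collagen genes held both directions. Of 8 measured, 4 lay above control and 4 below, 2 of these at least 2-fold lower, with a median of 0.00 (-0.63 in the second pair, all 8 below). The lower pair were genes of fibrillar collagen. COL1A1 was at 8.86 FPKM without CCCP and 2.54 with it, 3.49-fold (3.14 to 3.90) lower, and COL5A1 at 34.0 and 13.2, 2.59-fold (2.47 to 2.71) lower, with log2 ratios of -1.48 and -1.23 in the second pair. The basement membrane collagens COL4A1 and COL4A2 were at log2 ratios of 0.01 and 0.19, with both of these below DHA alone in the second pair. COL1A1 is a fibroblast marker as well. The other 4 measured markers of that list, FAP, FBN1, PDGFRB and PDPN, were at -0.93, -0.45, 0.28 and 0.35, and the part of other cells in the collagen values was not tested. SOX9, a transcription factor of cartilage collagen genes and among the lowest ratios, was at 28.1 FPKM without CCCP and 10.2 with it, 2.76-fold (2.53 to 3.01) lower, and AMIGO2, a cell adhesion gene, was at 11.9 and 3.68 FPKM but at 13.5 and 11.8 in the second pair. NCOA5, a nuclear receptor coactivator gene, likewise was at 9.97 and 2.36 and then at 8.98 and 7.52.

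Targets of YAP and TEAD, the factors that read cell shape and contact, included 3 genes at least 2-fold higher and none lower among 17, with a median log2 ratio of 0.40 (0.11 in the second pair). CYR61, a secreted matricellular protein also named CCN1, was at 548 FPKM without CCCP and 1386 with it, 2.53-fold (2.49 to 2.57) higher, and at 760.1 FPKM with DHA and 1249 with both. ANKRD1, a muscle ankyrin repeat gene, was at 26.3 FPKM without CCCP and 62.0 with it, 2.36-fold (2.19 to 2.55) higher, and at 49.5 FPKM with DHA and 133 with both, and the third was TGFB2. CTGF, or CCN2, the target most often paired with CYR61, was at 281 FPKM without CCCP and 241 with it, 1.17-fold (1.13 to 1.20) lower. Of the factor genes, YAP1 was at 22.4 and 22.4 FPKM and the kinase gene LATS2, itself a target, at 8.11 and 12.4. GGAATG, the core bound by TEAD factors, was found on either strand in 11 of 25 windows (44.0%) of 19 genes of the list and in 14% of all windows. The window of ANKRD1 (chr10:90921038-90921337, minus strand, GRCh38.p14) holds it 2 times, in capitals, and is shown as the target that was more than 2-fold higher in both pairs.
ANKRD1: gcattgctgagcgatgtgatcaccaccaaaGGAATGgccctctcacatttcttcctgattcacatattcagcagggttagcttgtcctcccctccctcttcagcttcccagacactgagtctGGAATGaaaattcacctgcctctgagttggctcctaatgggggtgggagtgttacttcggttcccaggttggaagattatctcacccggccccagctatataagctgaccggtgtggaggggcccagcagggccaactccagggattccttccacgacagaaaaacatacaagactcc

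Genes of the actin skeleton and of its factor SRF were above control in 15 of 19 cases with CCCP alone, 1 of them at least 2-fold, and below DHA alone in 15 of 19 in the second pair, with medians of 0.27 (0.16 under scaling to equal totals) and -0.21. TAGLN, which encodes the actin binder transgelin, was at 30.6 FPKM without CCCP and 74.8 with it, 2.44-fold (2.33 to 2.57) higher, but at 62.3 FPKM with DHA and 57.7 with both. MYL9, a myosin light chain gene, was at 33.2 FPKM without CCCP and 61.1 with it, 1.84-fold (1.73 to 1.95) higher, MYH9, its heavy chain partner, at 301 and 519 FPKM, and ACTG1, cytoplasmic gamma actin, at 3709 and 5348 FPKM. In the second pair these 3 were at -0.41, -0.30 and -0.34. Tubulin genes had a median of -0.06, 8 of 11 below control, and in the second pair -0.64, with TUBA1B at 163 and 120.2 FPKM, then 134 and 58.0. Several tubulin and actin genes have close copies that can share reads.

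Cytokine genes held both directions, and the highest ratios were at low levels. IL1B was at 0.116 FPKM without CCCP and 1.43 with it, on 7 and 74 reads, and IL1A at 0.314 and 1.49, on 13 and 53 reads. CXCL8, the neutrophil chemokine and one of the more abundant members, was at 14.5 FPKM without CCCP and 7.48 with it, 1.94-fold (1.69 to 2.24) lower, but was 1.73-fold (1.58 to 1.91) higher in the second pair. Of feedback genes of NF-kB, RELB was at 1.27 FPKM without CCCP and 3.27 with it, 2.58-fold (1.95 to 3.43) higher, BIRC3 at 0.847 and 2.95 FPKM, 3.49-fold (2.84 to 4.31) higher, and the inhibitor gene NFKBIA at 5.13 and 9.36 FPKM. Over the 14 measured genes, 4 of them at least 2-fold higher, the median log2 ratio was 0.56, and it turned to -0.35 over the 6 that averaged 5 FPKM or more. IL32, another cytokine gene and one of the highest ratios over all protein-coding genes, was at 3.65 and 9.62 FPKM. Interferon-stimulated genes lay mostly below control, 9 of 12 with a median of -0.24, OAS3 at 3.93 and 2.76. The widest of them, IFI6, lay above control at a log2 ratio of 0.63. In the second pair the 12 were split, 6 above and 6 below DHA alone, with a median of -0.01. The genes of antigen display on MHC class I were above control in 9 of 12 cases, with a median of 0.48: B2M, the shared light chain, was at 108 FPKM without CCCP and 187 with it, 1.74-fold (1.70 to 1.78) higher, HLA-B at 38.9 and 71.4 FPKM, and TAP1, the peptide pump, at 2.56 and 4.6 FPKM. Heavy chain genes resemble each other and can share reads.

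Lipid, growth and lineage genes gave single differences. SCD, the desaturase that makes oleate, was at 36.2 FPKM without CCCP and 17.7 with it, 2.04-fold (1.93 to 2.17) lower, and SREBF1, the factor behind fatty acid synthesis, at 5.74 and 2.87, 2.0-fold (1.77 to 2.26) lower, in a list of 15 with a median of -0.19. Sterol synthesis had a median of -0.04 over 21 genes. Fatty acid oxidation had a median of 0.15 (0.05 under scaling to equal totals), 10 of 12 above control and none 2-fold different. Of readouts of the MAPK pathway, which the GNAQ and GNA11 mutations of this cancer turn on, DUSP4 and DUSP6, the phosphatases that feed back on ERK, were at 7.40 and 4.52 and at 1.92 and 1.25 FPKM. The 12 measured readouts had a median log2 ratio of -0.148, with 9 below control and 3 above. In the second pair their median was 0.24, with 8 above DHA alone and 4 below. GNA11 was 1.41-fold (1.28 to 1.54) lower, GNAQ was at 16.5 and 15.9, and the tumour suppressor gene BAP1 at 13.9 and 12.5. JUNB, an AP-1 factor gene, was the immediate early gene at least 2-fold lower, at 29.5 and 14.5 FPKM. IGFBP5, a secreted carrier of insulin-like growth factors, was at 9.20 FPKM without CCCP and 18.4 with it, 2.0-fold (1.86 to 2.15) higher, but at 6.62 FPKM with DHA and 1.06 with both. ATP1B1, a sodium pump subunit, was 1.51-fold (1.41 to 1.62) higher, and SLC4A2, an anion exchanger that takes part in pH control, 1.54-fold (1.46 to 1.63) lower.

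Among genes of other types averaging 5 FPKM or more, the 4 highest ratios were mixed in the second pair. RN7SL2, a copy of the signal recognition particle RNA, was at 26.5 FPKM without CCCP and 152 with it, on 155 and 760 reads, with -0.72 on the log2 scale in the second pair, and AC004057.1, a transcribed processed pseudogene, at 20.3 and 149 FPKM with -1.81. The microRNA gene MIR6827, on 5 and 17 reads, had 1.87 and 0.24 in the 2 pairs, and AC089983.1, on 59 and 160, had 1.55 and 1.49. On the lower side AC245041.1, a long intergenic RNA, was at 31.8 FPKM without CCCP and 6.38 with it and SPCS2P4, a processed pseudogene, at 36.2 and 7.73 FPKM, with -1.24 and -1.91 in the second pair. RN7SL1, RN7SK, RPPH1 and RMRP, structural RNAs that are abundant in cells, were listed at 0 in both libraries.

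**Figure D5:**
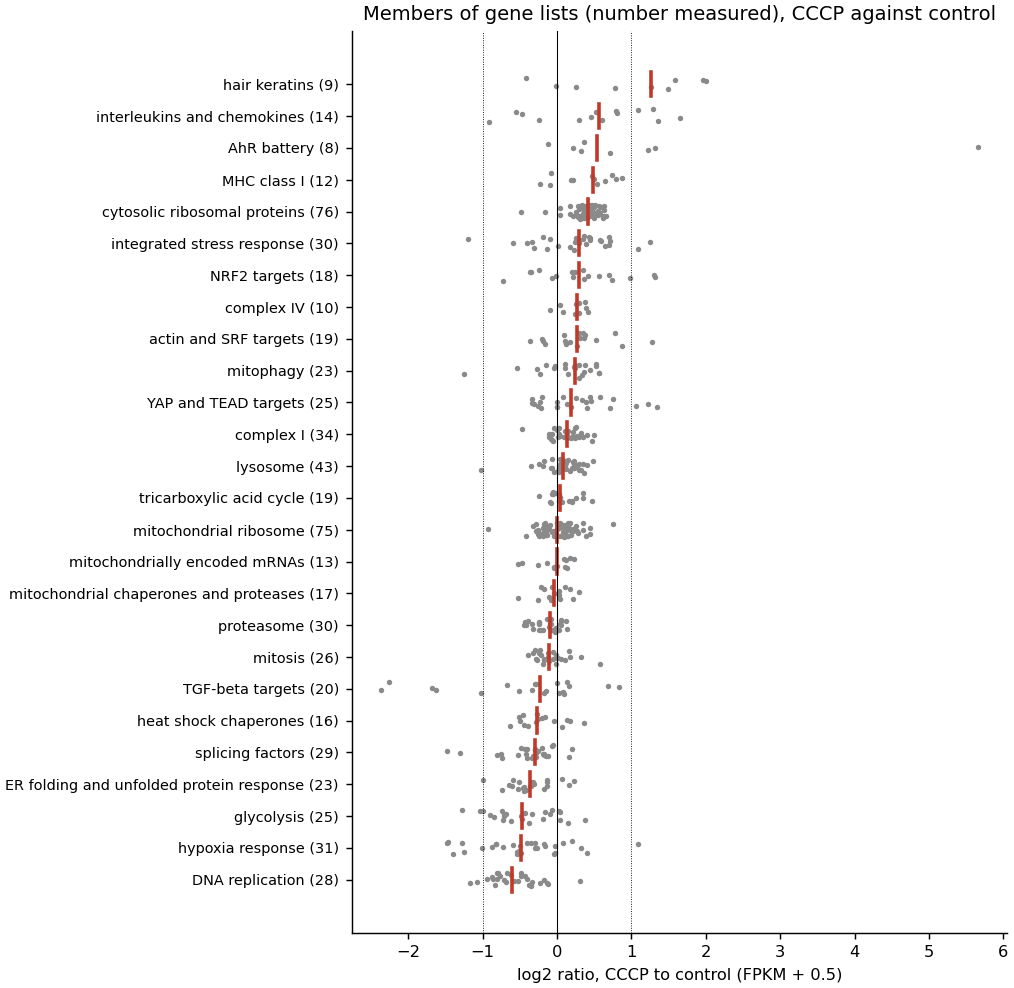
Log2 ratios of CCCP to control for the measured members of 26 gene lists, 1 grey point per gene, with the number measured in brackets, the list median as a red bar and dotted lines at 2-fold. DNA replication, hypoxia and glycolysis lie lowest at medians of -0.60, -0.48 and -0.47, and the 76 ribosomal proteins form a tight group at 0.41.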

How the data were processed

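RNA was sequenced in 1 library each of control, CCCP, DHA, and CCCP with DHA, from a kit that does not mark strand, so that reads of a gene and an antisense partner cannot be told apart. The authors deposited FPKM per gene, per the file headers, with aligner, counter and genome version not given in the sources used here. The 58735 gene identifiers all matched GENCODE 29 on GRCh38, and 58708 names were equal. FPKM times the union exon length of that annotation gave whole reads for 100% of values within 0.01, which set the counting intervals. The library sizes implied by the values were 19463727 in control and 16706487 with CCCP. Reads counted in genes were 18937286 and 16942245, so the first size was above its count and the second below. The deposited values thus carry a scale other than that count, and how it was set is not given.

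Ratios are differences of log2(FPKM + 0.5), taken where control or CCCP reached 1 FPKM, and a gene was called at 2-fold. With 1 library per group no test was run. Folds carry exact Clopper-Pearson 95% intervals on the reads, which cover counting error only, since reads without molecular identifiers are not independent molecules. Total reads were 18937286, 16942245, 17347602 and 16900411. Members of 73 gene lists and the lists themselves were chosen with earlier results of these data known. Named are the 15 highest and 15 lowest protein-coding ratios among genes averaging 5 FPKM or more, the 4 highest and lowest of other types, up to 6 members of each list with the widest ratios, its core members and those at least 2-fold different. ACO1, CDK1, CDT1, COL4A1, COL4A2, CTGF, DELE1, EGLN1, EIF2AK1, GAPDH, IREB2, OMA1, PFKL, PFKM, PFKP, RPIA, SLC16A1, SRSF4 and SRSF11, and RRS1, TM4SF1, C1orf198 and GPRC5A in the closing section, were named outside that rule after their values were seen. Some genes of the rule and the lists are not reported here. Other pseudocounts, filters, fold limits and scalings were tried. Promoter windows are from RefSeq (GRCh38.p14). The calling step was tested on simulated counts with planted changes and no variation between cultures. That checks the calculation and cannot show how often unchanged genes pass the fold limit between single cultures. Scipy 1.17.1, matplotlib 3.10.9, pandas 2.3.3 and numpy 2.4.6 were run under Python 3.11.15.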

Additional observations from a re-analysis of the deposited data

Results flagged for a closer look

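Of the protein-coding genes at least 2-fold different with CCCP alone, 22 lay on the other side of 0 where CCCP was added to DHA, 18 of the higher and 4 of the lower. The 8 named next averaged 5 FPKM or more over control and CCCP and had counting intervals that excluded 1 in both pairs, and the difference between the pairs was not tested, as each pair holds 1 library per group. On the log2 scale TFRC, the transferrin receptor gene, was at -1.33 against 0.85 in the second pair, and RRS1, a ribosome assembly gene, at -1.06 against 0.28. Higher with CCCP alone were TM4SF1, a tetraspanin-like surface protein gene, at 1.03 against -0.91, C1orf198 at 1.11 against -0.17, GPRC5A, an orphan receptor gene, at 1.13 against -0.38, TAGLN at 1.28 against -0.11, OXTR at 1.37 against -0.17 and CEMIP at 2.05 against -0.35. Of 60 gene lists with at least 6 measured members, 19 had medians of opposite sign in the pairs, likewise untested, and in 4 of them both medians were at least 0.15 in size: actin and SRF targets at 0.27 against -0.21, complex IV at 0.27 against -0.16, immediate early genes at -0.17 against 0.15, and melanocyte lineage markers at 0.15 against -0.27. No group had the 4 libraries that a check for a library far from the others needs.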

How the results depend on the processing

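The counts over all gene types depended on how low levels were treated. Against 404 higher and 270 lower genes, a pseudocount of 0.1 gave 553 and 414. A pseudocount of 1 gave 262 and 178, with 14.5% of the higher genes also at least 2-fold higher in the second pair. Without the filter there were 651 and 501, with 18.4% of the lower genes repeated. A mean of at least 5 FPKM left 58 and 49, with 55.1% of the lower repeated. A limit of 1.5-fold gave 1006 and 789 (36.9% of the lower repeated), and one of 4-fold 74 and 46 (9.46% and 6.52% repeated). Protein-coding genes alone gave 72 and 60 (29.2% and 43.3% repeated). A minimum of 100 reads, added after seeing the data, gave 87 and 68. The median of the interleukin and chemokine list changed sign, to -0.35 over 6 genes, at a mean of at least 5 FPKM. Scaling to equal totals gave 338 and 323 and scaling by the median of ratios 404 and 267. The latter could change little, because the median log2 ratio of all genes was already 0.00 before it. Under equal totals 198 of 450 named genes moved by at least the margin of their own counting interval. Of 71 list medians 27 moved by at least the median margin of their members, which is not an error of the list median. This scaling lowered most ratios by a similar amount, so these counts depend largely on read depth.

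The limit of every value is the single library per group: intervals cover counting, and differences between cultures were not measured. No paired analysis was possible because each group has 1 library and the labels carry no replicate numbers.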
